A study of Mus musculus with 8 samples.

Results

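Ox40 and its closest relatives were followed across 4 populations of sorted mouse CD4 T cells: the receptors Tnfrsf4 (Ox40), Tnfrsf9 (4-1BB), Tnfrsf18 (GITR), Tnfrsf1b (TNF receptor type II) and Tnfrsf25 (DR3), and the ligands Tnfsf8 (CD30 ligand) and Tnfsf11 (RANKL). All array probes annotated to these 7 genes were taken, which gave 11 probes of the 41174 non-control probes on the array. The 7 genes were among 27670 gene names, and all of them were among the 17996 genes tested. The populations were named Treg (regulatory T cells), CD44hi, CD44lo and naive, with 2 arrays each. All came from male C57BL/6 mice of 15 weeks, from spleen and lymph nodes that had been pooled. The series title names Ox40-cre/ROSA-YFP, a reporter in which cells that have expressed Ox40, and their descendants, become marked with YFP. The labels give neither the markers used for sorting nor the YFP status of a population, and they do not say whether the 2 samples of a population came from separate animals, so the p-values rest on differences between samples that could be technical repeats. Cre made from the Ox40 locus records past as well as present expression, and the reporter protein itself was not among the probes used here.

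These receptors belong to the tumour necrosis factor (TNF) receptor superfamily. Ox40, 4-1BB, GITR, TNF receptor type II and DR3 are costimulators: on binding their trimeric ligands they recruit TRAF adaptor proteins (DR3 by way of the adaptor TRADD) and switch on NF-kappaB, which promotes survival, division and cytokine production in T cells. Several of them are known to be present on resting regulatory T cells and to be induced on conventional T cells after antigen contact. CD30 ligand and RANKL are ligands that activated T cells carry or shed and that act on receptors of B cells, dendritic cells, osteoclast precursors and T cells.

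The values are single-colour microarray signals, each divided by the 75th percentile of its array and called relative signal, so that a value of 1 is the signal at that percentile. Probes differ in how well they bind, so levels are compared between arrays and never between genes. Of the 11 probes, 10 were well above background on all 8 arrays and 1, the dimmer probe of Tnfrsf9, was so on 1 array. That percentile, a measure of overall brightness, stood at 639 for naive array 2 and 991 for naive array 1, and the remaining 6 arrays ranged over 1045 to 1337. The share of probes well above background ran over 59.2% to 68.8%. The 8 listed T cell genes, Cd4 and Cd3e among them, were well above background on all arrays and were called in 0 of the 6 comparisons by limma, with 3 of them at an unadjusted p under 0.05 in Treg against naive and 1 in Treg against CD44hi. The arrays lay on 2 slides of 4, each with 1 array per population.

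The probes that carry the results, and the start regions of the genes concerned, are shown next. Each probe is 60 bases long, and the last 30 bases are given in the sense direction, with the polyadenylation hexamer AATAAA in capitals in the probe that held it, since a signal depends on which part of the transcript its probe reads. Coordinates of probes are those of the array annotation (build mm7). The Tnfrsf4 probe lies on the plus strand at chr4:155006068-155006127. The 2 probes of Tnfrsf1b, minus strand, lie at chr4:144626830-144626889 and, split over a span of 574 bases, at chr4:144635392-144635965. Those of Tnfsf11, minus strand, lie at chr14:72958504-72958563 and chr14:72958725-72958784.
Tnfrsf4: tacctgcctggtggtgctcctAATAAAcat
Tnfrsf1b, brighter probe: tgcttataaatgctttttgttgttgttttg
Tnfrsf1b, dimmer probe: aaaaagaagccctcctgcctacaaagagat
Tnfsf11, brighter probe: ttaagttcttttgaattgttacattgcgct
Tnfsf11, dimmer probe: gatgttagattcatggtgattacacaacgg

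The 250 bases before the annotated start were available for all 7 genes, in 9 windows, from RefSeq on GRCm38.p6. They are printed for Tnfrsf4 and Tnfrsf9, the members called higher in Treg against each other population, and for Tnfrsf18, which is the next gene after Tnfrsf4 on the same strand. Capitals mark matches to 4 motifs searched on both strands. The NF-kappaB-like motif was written GGGNNNNNCC. The motif of the activation factor AP-1 was written TGANTCA. The forkhead motif, of the family that Foxp3 belongs to, was written TAAACA. The core promoter element known as the TATA box was written TATAAA, and forkhead and TATA box letters may overlap. Tnfrsf4 is read at chr4:156013445-156013694, Tnfrsf18 at chr4:156026072-156026321 and the second annotated start of Tnfrsf9 at chr4:150927749-150927998, all on the plus strand.
Tnfrsf4: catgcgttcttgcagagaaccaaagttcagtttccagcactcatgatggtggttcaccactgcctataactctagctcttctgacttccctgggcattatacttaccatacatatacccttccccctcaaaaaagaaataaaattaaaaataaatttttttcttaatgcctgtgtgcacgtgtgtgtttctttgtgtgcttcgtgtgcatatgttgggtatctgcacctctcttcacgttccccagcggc
Tnfrsf18: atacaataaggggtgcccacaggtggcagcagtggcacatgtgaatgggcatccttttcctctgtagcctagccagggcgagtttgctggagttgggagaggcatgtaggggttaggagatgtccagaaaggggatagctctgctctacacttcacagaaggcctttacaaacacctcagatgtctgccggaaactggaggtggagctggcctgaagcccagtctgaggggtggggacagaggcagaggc
Tnfrsf9: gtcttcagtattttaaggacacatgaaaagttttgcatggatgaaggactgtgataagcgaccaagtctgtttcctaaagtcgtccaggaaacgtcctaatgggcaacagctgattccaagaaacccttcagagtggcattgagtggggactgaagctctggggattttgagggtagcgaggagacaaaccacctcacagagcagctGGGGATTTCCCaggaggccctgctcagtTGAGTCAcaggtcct

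The windows of Tnfrsf4 and Tnfrsf18 held none of the 4 motifs, which says only that these letters are not in these 250 bases. The window of Tnfrsf9 held overlapping NF-kappaB-like matches 43 and 42 bases before the start and an AP-1 match 15 bases before it. NF-kappaB-like matches were in 45.8% of the 32851 promoter windows of the same length, AP-1 matches in 6.75%, forkhead matches in 12.03% and TATA box matches in 12.4%. In the other windows, NF-kappaB-like matches were found for Tnfrsf1b, Tnfsf11 and both starts of Tnfrsf25, a forkhead match for the first start of Tnfrsf9, and a TATA box match, on the opposite strand, 32 bases before the start of Tnfsf11. A match describes the letters and is no evidence that a factor binds there.

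Tnfrsf4, the receptor whose locus drives the cre, was lowest in naive, intermediate in CD44lo and CD44hi, and highest in Treg. Its relative signal was 24.8 and 23.0 in Treg, 8.76 and 10.5 in CD44hi, 6.63 and 9.92 in CD44lo, and 1.62 and 2.74 in naive. The Treg arrays lay above all others, the naive arrays below all others, and the CD44hi and CD44lo ranges overlapped. The mean was 23.9 ± 1.30 in Treg, 9.66 ± 1.26 in CD44hi, 8.27 ± 2.33 in CD44lo and 2.18 ± 0.793 in naive (SD, n = 2 arrays each). The fit gave Treg an 11.3-fold higher level than naive (log2 3.50 ± 0.30 SE, limma adjusted p = 4.4e-04), CD44hi a 4.57-fold higher level (log2 2.19, adjusted p = 0.00276) and CD44lo a 3.85-fold higher level (log2 1.95, adjusted p = 0.0138). Within slides 1 and 2 the log2 differences from naive were 3.18 and 3.83 in Treg, 1.68 and 2.70 in CD44hi, and 1.86 and 2.03 in CD44lo. In such bulk samples, a larger share of expressing cells and more RNA per cell cannot be told apart.

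Treg also exceeded CD44hi and CD44lo in Tnfrsf4, by 2.48-fold over CD44hi (log2 1.31 ± 0.30, limma adjusted p = 0.0491) and 2.95-fold over CD44lo (log2 1.56 ± 0.30, adjusted p = 0.0350). The first of these lay close to the threshold and missed it with the slide as a block (adjusted p = 0.0564). CD44hi and CD44lo, neighbours in the order, did not differ beyond their spread (log2 0.25 ± 0.30, adjusted p = 0.695).

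Tnfrsf9 encodes 4-1BB, a costimulatory receptor that T cells acquire after activation. The brighter of its probes (plus strand, chr4:149934539-149934598) read 3.75 and 3.81 in Treg, 0.859 and 1.11 in CD44hi, 0.990 and 1.42 in CD44lo, and 0.326 and 0.486 in naive. The Treg arrays again lay apart and above, while CD44hi and CD44lo overlapped. Treg exceeded naive 9.49-fold (log2 3.25 ± 0.27, limma adjusted p = 3.7e-04), CD44hi 3.88-fold (log2 1.95, adjusted p = 0.00741) and CD44lo 3.19-fold (log2 1.67, adjusted p = 0.0182). CD44lo exceeded naive by log2 1.57 (adjusted p = 0.0204) and CD44hi by log2 1.29 (adjusted p = 0.0143). The other probe of the gene read between 0.005 and 0.018 on the 8 arrays and was not tested, and the mean of both probes, which takes that near-background probe in, ended the calls of Tnfrsf9 except in Treg against naive. On the brighter probe alone, the call of CD44lo against naive was also lost without a filter on dim probes (limma adjusted p = 0.0699). A fit of only these 2 populations ended it too (0.0668). Treg against CD44lo lost its call without that filter (0.0642).

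Tnfrsf18 encodes GITR, a receptor constitutively present on regulatory T cells. Its probe (plus strand, chr4:155018282-155018341) was well above background in every population: 98.3 and 93.9 in Treg, 44.3 and 47.4 in CD44hi, 45.0 and 51.3 in CD44lo, and 26.2 and 40.6 in naive. Treg stood above the rest without overlap, and in relative signal the naive arrays differed from each other more than those of any other population. Before division by the 75th percentile (991 for naive array 1 and 639 for naive array 2), their signals were nearly equal, at 25944 and 25953. Whether the naive samples differed in this gene, or only in the overall brightness of their arrays, was not tested. Treg was 2.95-fold higher than naive (log2 1.56 ± 0.23, limma adjusted p = 0.00389) and 2.10-fold higher than CD44hi (log2 1.07 ± 0.23, adjusted p = 0.0355). Against CD44lo the ratio was 2.00 (log2 1.00 ± 0.23), which was not called (adjusted p = 0.0567) but was under 7 of 11 other settings (adjusted p from 0.00314 to 0.164 over the 11) and without either naive array (0.0142). CD44hi and CD44lo were not called against naive (log2 0.49, adjusted p = 0.150, and log2 0.56, adjusted p = 0.245), but both were called without naive array 2 (adjusted p = 0.0137 and 0.0366), and both in the authors' quantile-scaled value table (log2 0.80 and 0.93).

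Tnfrsf1b encodes TNF receptor type II, which binds TNF and lymphotoxin and is known to favour regulatory T cell expansion. Its brighter probe was printed 10 times on each array, with a coefficient of variation of 2.93% to 5.57% among the spots of an array. It read 5.94 and 6.80 in Treg, 3.70 and 3.85 in CD44hi, 2.45 and 3.52 in CD44lo, and 1.04 and 1.21 in naive. None of the populations overlapped. Treg exceeded naive 5.68-fold (log2 2.51 ± 0.21, limma adjusted p = 3.8e-04), CD44hi exceeded naive 3.38-fold (log2 1.76, adjusted p = 0.00145) and CD44lo exceeded naive 2.62-fold (log2 1.39, adjusted p = 0.0118). The call of CD44lo against naive held under 9 of 11 other settings. It was lost with the mean of both probes (log2 0.80, adjusted p = 0.0700) and in a fit of only these 2 populations (0.0608). Treg was called against CD44lo (log2 1.11 ± 0.21, limma adjusted p = 0.0310), also under 7 of 11 other settings. That call was lost with the slide as a block (adjusted p = 0.0539) and in a fit of only the 2 populations (0.0698). It was also lost without a filter on dim probes (0.103) and with the mean of both probes (0.106). Treg was not called against CD44hi (log2 0.75 ± 0.21, adjusted p = 0.0892), but was under 5 of 11 other settings (lowest adjusted p 0.0409). Tnfrsf4 and Tnfrsf1b were the members whose means ran in the order Treg, CD44hi, CD44lo, naive from high to low, an order shared by 874 of the 17996 genes tested (4.86%).

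The dimmer Tnfrsf1b probe did not show these differences. It read 0.314 and 0.352 in Treg, 0.273 and 0.364 in CD44hi, 0.282 and 0.280 in CD44lo, and 0.223 and 0.269 in naive. In a fit of 27162 probes its Treg against naive difference was log2 0.44 ± 0.19 (limma adjusted p = 0.160), against 2.51 for the brighter probe. The results on Tnfrsf1b therefore rest on the brighter probe, and what the other probe reads was not tested.

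Tnfrsf25 encodes DR3, the death-domain costimulator that binds TL1A. It was the member receptor that differed least between populations, at 46.5 and 42.8 in Treg, 38.8 and 43.1 in CD44hi, 35.5 and 35.8 in CD44lo, and 34.6 and 42.0 in naive. The naive range took in both CD44lo arrays, and Tnfrsf25 was called in none of the 6 comparisons by limma, also not at an unadjusted p under 0.05. Its log2 difference from naive was 0.23 ± 0.16 in Treg (adjusted p = 0.325), 0.10 ± 0.16 in CD44hi and -0.10 ± 0.16 in CD44lo, and the last of these turned to 0.26 in the authors' value table. In that table Treg and CD44hi were called against naive, with log2 differences of 0.46 and 0.36 (adjusted p = 0.0267 and 0.0492). Its second probe differed from naive by log2 0.57 in Treg, 0.92 in CD44hi and 0.43 in CD44lo, none of them called, and its naive arrays read 1.16 and 0.490.

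The plot of relative signals shows these 5 receptors beside both ligands.

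**Figure D1:**
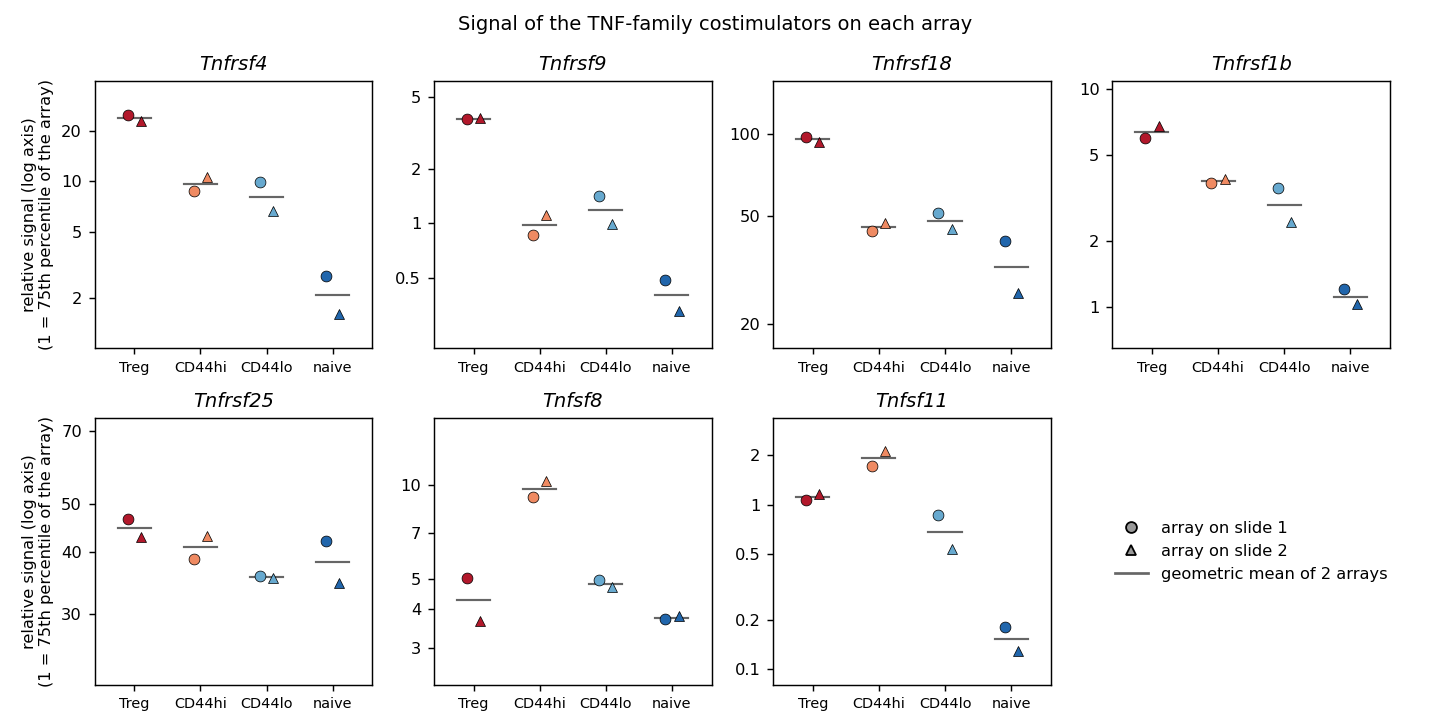
Relative signal of the tested probe of each gene (log axis, 1 is the 75th percentile of the array) on the arrays of the Treg, CD44hi, CD44lo and naive populations; circles are arrays of slide 1, triangles those of slide 2, and lines the geometric mean of 2 arrays. For Tnfrsf4, Tnfrsf9, Tnfrsf18 and Tnfrsf1b both Treg arrays lie above all others, and for Tnfsf8 and Tnfsf11 both CD44hi arrays do.

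Both ligands had their highest level in CD44hi. Tnfsf8, which encodes the ligand of CD30, read 5.03 and 3.66 in Treg, 9.16 and 10.3 in CD44hi, 4.70 and 4.95 in CD44lo, and 3.79 and 3.71 in naive. The CD44hi arrays lay above the rest, the Treg range took in the CD44lo and naive arrays, and the 2 Treg arrays differed from each other more than those of any other population. Treg was 2.26-fold lower than CD44hi (log2 -1.18 ± 0.19, limma adjusted p = 0.0130). CD44hi was 2.58-fold higher than naive (log2 1.37 ± 0.19, adjusted p = 0.00263) and 2.01-fold higher than CD44lo (log2 1.01 ± 0.19, adjusted p = 0.0219). Neither Treg (log2 0.19 ± 0.19, adjusted p = 0.469) nor CD44lo (log2 0.36 ± 0.19, adjusted p = 0.312) was called against naive.

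Tnfsf11 encodes RANKL, the ligand that drives osteoclast formation and supports dendritic cells. Its brighter probe read 1.07 and 1.16 in Treg, 1.73 and 2.10 in CD44hi, 0.536 and 0.860 in CD44lo, and 0.129 and 0.181 in naive. The populations did not overlap, and naive was far below the other 3. CD44hi exceeded naive 12.5-fold (log2 3.64 ± 0.28, limma adjusted p = 2.3e-04), Treg exceeded it 7.31-fold (log2 2.87, adjusted p = 7.1e-04) and CD44lo exceeded it 4.45-fold (log2 2.15, adjusted p = 0.00602). CD44hi also exceeded CD44lo 2.81-fold (log2 1.49 ± 0.28, adjusted p = 0.0221). Treg was called neither against CD44hi (log2 -0.77 ± 0.28, adjusted p = 0.172) nor against CD44lo (log2 0.72 ± 0.28, adjusted p = 0.238).

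The dimmer Tnfsf11 probe gave nearly the same differences. It read 0.749 and 0.937 in Treg, 1.38 and 1.68 in CD44hi, 0.437 and 0.653 in CD44lo, and 0.090 and 0.115 in naive, and its log2 differences had the sign of the brighter probe in 6 of 6 comparisons with a gap of at most 0.26. For Tnfrsf1b the signs were also the same in 6 of 6 comparisons with a gap of up to 2.06, and for Tnfrsf25 in 4 of 6. The plot of both probes sets these pairs side by side.

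**Figure D2:**
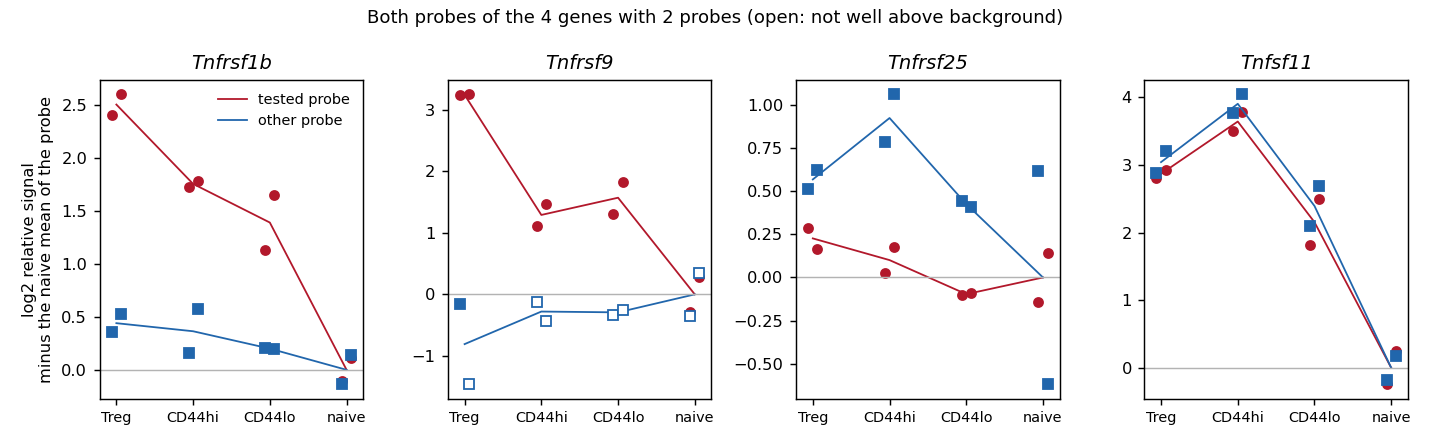
log2 relative signal of each probe minus the mean of its naive arrays, for the 4 genes with 2 probes, by population; points are arrays, lines join the means, and open symbols were not well above background. Both Tnfsf11 probes follow each other, the dimmer Tnfrsf1b probe stays within 0.6 of its naive mean, and the dimmer Tnfrsf9 probe is open on 7 of 8 arrays.

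Counted over the 7 genes, 5 were called higher in Treg than in naive, where 11.6% of all genes tested were called higher, 10.3% lower and 21.9% in either direction. In CD44hi against naive 5 were called higher, where 13.2% of all genes were called higher, 14.5% lower and 27.8% in either direction. In CD44lo against naive 4 were called higher, where 4.53% of all genes were called higher, 0.761% lower and 5.29% in either direction. None of the 7 was called lower in these 3 comparisons, which share the naive arrays. The median log2 difference of the 7 genes was 2.51 in Treg, 1.37 in CD44hi and 1.39 in CD44lo, against -0.20, -0.15 and -0.13 over all genes tested. Without one array at a time, 5 genes were called in Treg against naive every time, 4 to 6 in CD44hi against naive and 1 to 5 in CD44lo against naive, the lowest without CD44lo array 2, when Tnfrsf4 had log2 1.65 and adjusted p = 0.0954, Tnfrsf9 log2 1.31 and 0.147, and Tnfrsf1b log2 1.13 and 0.0793. Tnfrsf9 also lost its call in CD44lo against naive without either Treg array (adjusted p = 0.0513) and in CD44hi against naive without CD44hi array 2 (log2 1.11, adjusted p = 0.0847).

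Among the 3 populations other than naive, Treg had higher receptor levels and CD44hi higher ligand levels where genes were called. In Treg against CD44hi, the receptors Tnfrsf4, Tnfrsf9 and Tnfrsf18 were called higher (3 of 7 genes, where 4.15% of all genes were) and the ligand Tnfsf8 lower (1 of 7, where 4.04% were, and 8.19% of all genes in either direction). In Treg against CD44lo, Tnfrsf4, Tnfrsf9 and Tnfrsf1b were called higher (3 of 7, where 3.7% of all genes were, with 1.87% lower and 5.56% in either direction). In CD44hi against CD44lo, both ligands were called higher (2 of 7, where 6.06% of all genes were, with 3.31% lower and 9.37% in either direction) and none of the 5 receptors was called, 0 of them also at an unadjusted p under 0.05. Leaving out single arrays gave 0 to 4 called members in Treg against CD44hi, 0 to 4 in Treg against CD44lo and 0 to 2 in CD44hi against CD44lo, while the log2 differences of the called members kept their sign. For Tnfrsf4 in Treg against CD44hi the call was lost without Treg array 1 (log2 1.26, adjusted p = 0.222), Treg array 2 (1.37, 0.185), CD44hi array 1 (1.18, 0.175), CD44hi array 2 (1.45, 0.131) and either CD44lo array (1.31, 0.0579). Tnfrsf9 kept log2 differences between 1.77 and 2.14 in that comparison, with adjusted p = 0.0576 without Treg array 1 and 0.0558 without Treg array 2. Tnfsf8 lost its call there without Treg array 2 (log2 -0.95, adjusted p = 0.0808) and without CD44hi array 2 (log2 -1.09, adjusted p = 0.0854), and Tnfrsf18 without any single Treg, CD44hi or CD44lo array (log2 1.02 to 1.12, adjusted p up to 0.189). In Treg against CD44lo, leaving out any single Treg or CD44lo array ended the call of Tnfrsf4 (adjusted p from 0.0605 to 0.219), leaving out either Treg array or CD44lo array 1 ended that of Tnfrsf9 (up to 0.126), and leaving out either Treg array, either CD44hi array or CD44lo array 1 ended that of Tnfrsf1b (up to 0.212). In CD44hi against CD44lo, Tnfsf8 lost its call without any single CD44hi or CD44lo array (up to 0.160), and Tnfsf11 without either CD44hi array or CD44lo array 1 (up to 0.127).

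**Figure D3:**
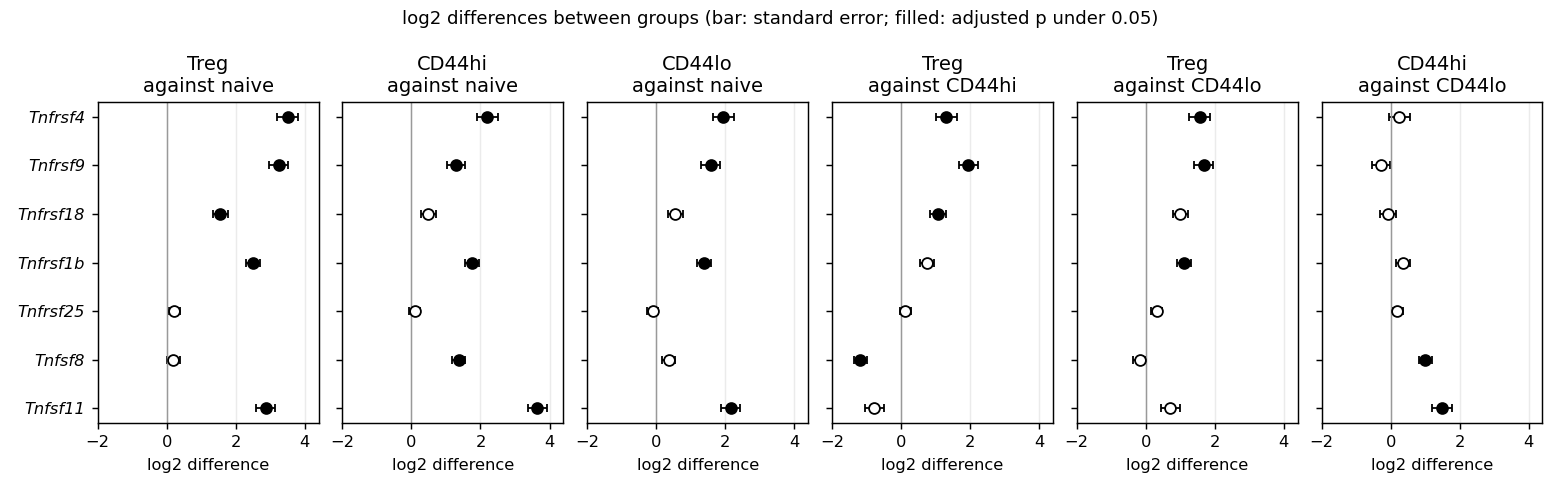
log2 differences between populations for the 7 genes in the 6 comparisons, first named over second named; bars are standard errors of the fit and filled points have a limma adjusted p under 0.05. The receptors Tnfrsf4, Tnfrsf9, Tnfrsf18 and Tnfrsf1b lie right of 0 in all comparisons of Treg, and both ligands lie left of 0 in Treg against CD44hi.

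Tnfrsf4 and Tnfrsf9 were the members called higher in Treg against each of the other populations, as were 257 genes of the 17996 tested (1.43%). For Tnfrsf4 the call against CD44hi held under 7 of 11 other settings. By mean level of the tested probe, all 5 member receptors were highest in Treg, a position held by 14.6% of all genes tested and by 6 of 18 other TNF receptors. For Tnfrsf25 the margin over CD44hi was log2 0.13 ± 0.16 (limma adjusted p = 0.737), with overlapping ranges. The second Tnfrsf25 probe was highest in CD44hi, with log2 -0.36 in Treg against CD44hi. Both member ligands were highest in CD44hi, as were 9 of 13 other TNF ligands and 24.5% of all genes.

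The binding partners of the member receptors were read on the same arrays. Tnfsf4, the Ox40 ligand, read between 0.014 and 0.066 on the 8 arrays and was called in none of the 6 comparisons by limma, with 1 at an unadjusted p under 0.05. Tnfsf18, the GITR ligand, was not well above background on any array. Tnfsf9, the 4-1BB ligand, read 0.114 and 0.157 in Treg, 0.210 and 0.251 in CD44hi, 0.106 and 0.127 in CD44lo, and 0.0635 and 0.0747 in naive, and was called higher in Treg (log2 0.95 ± 0.22, adjusted p = 0.0241) and CD44hi (log2 1.74 ± 0.22, adjusted p = 0.00179) than in naive. Tnfsf15, the DR3 ligand TL1A, read between 0.0205 and 0.0545 and was called in 0 comparisons, 0 of them at an unadjusted p under 0.05.

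Of the ligands of TNF receptor type II, Tnf read 1.38 and 1.71 in Treg, 2.28 and 2.95 in CD44hi, 0.972 and 1.47 in CD44lo, and 0.725 and 0.878 in naive. Tnf was thus highest in CD44hi, by log2 1.70 ± 0.26 over naive (limma adjusted p = 0.00416) and 1.12 ± 0.26 over CD44lo (adjusted p = 0.0454). Lta, which encodes lymphotoxin alpha, had another order, at 5.64 and 5.12 in Treg, 2.27 and 2.43 in CD44hi, 2.59 and 2.69 in CD44lo, and 2.73 and 4.29 in naive. It was called higher in Treg than in CD44hi (log2 1.19 ± 0.23, adjusted p = 0.0244).

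The receptors for the member ligands were not well above background on every array. Tnfrsf8, which encodes CD30, read 0.0503 and 0.0543 in Treg, 0.0171 and 0.0358 in CD44hi, and 0.0182 and 0.0292 in CD44lo, and was not well above background on either naive array. It was at least 3.42-fold higher in Treg than in naive (adjusted p = 0.0208), a bound set by the dimmest signals well above background on the naive arrays. Tnfrsf11a, which encodes RANK, was well above background on 1 of 8 arrays and was not tested, and the RANKL decoy receptor Tnfrsf11b was called in none of the 6 comparisons, with 2 at an unadjusted p under 0.05.

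Elsewhere in the family, of 13 other TNF ligands tested, 5 were called higher and 2 lower in Treg than in naive, 4 higher and 1 lower in CD44hi than in naive, and 2 higher and 0 lower in CD44lo than in naive. Of all genes tested, 21.9% were called in Treg, 27.8% in CD44hi and 5.29% in CD44lo against naive. Tnfsf14 (LIGHT), a ligand of HVEM and of the lymphotoxin beta receptor, read 2.51 and 2.88 in Treg, 16.1 and 15.9 in CD44hi, 2.56 and 4.41 in CD44lo, and 0.236 and 0.296 in naive. The CD44hi level was thus above all other arrays, with a log2 difference of 5.92 ± 0.27 from naive (adjusted p = 4.6e-05). Tnfsf13b (BAFF), a B cell survival factor, was also highest in CD44hi, with log2 differences from naive of 2.87 in Treg, 4.39 in CD44hi and 2.49 in CD44lo (adjusted p = 0.00135, 2.0e-04 and 0.00642).

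Cd40lg, the T cell ligand that activates B cells and dendritic cells through CD40, was the ligand with the largest fall in Treg. It read 0.0424 and 0.0399 in Treg, 0.229 and 0.251 in CD44hi, 0.162 and 0.175 in CD44lo, and 0.212 and 0.167 in naive. Treg lay below all other arrays, with log2 differences of -2.19 ± 0.17 from naive (adjusted p = 2.7e-04), -2.54 from CD44hi (6.9e-04) and -2.03 from CD44lo (0.00238). Fasl, which encodes a death-inducing ligand, was also called lower in Treg than in naive (log2 -1.10 ± 0.23, adjusted p = 0.0180) and than in CD44hi (log2 -1.54, adjusted p = 0.0102). Tnfsf10 (TRAIL) was higher in Treg than in naive (log2 1.25 ± 0.24, adjusted p = 0.0134).

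Of 18 other TNF receptors tested, 3 were called higher and 6 lower in Treg than in naive, 1 higher and 3 lower in CD44hi than in naive, and 0 in CD44lo against naive (4 at an unadjusted p under 0.05). Over all genes tested, 11.6% were called higher and 10.3% lower in Treg, 13.2% higher and 14.5% lower in CD44hi, and 5.29% either way in CD44lo. The 18 receptors' median log2 difference in Treg against naive was -0.35, against 2.51 for the members and -0.20 for all genes tested. Tnfrsf13c, the BAFF receptor, was higher in Treg (log2 2.08 ± 0.38, adjusted p = 0.0103) and CD44hi (log2 3.45 ± 0.38, adjusted p = 0.00101). Tnfrsf12a, the TWEAK receptor, was lower in both (log2 -0.93, adjusted p = 0.00457, and log2 -1.40, adjusted p = 6.5e-04), as was Tnfrsf1a, the death-domain TNF receptor type I (log2 -0.77, adjusted p = 0.0137, and log2 -1.13, adjusted p = 0.00234). Tnfrsf19 was lower in Treg than in naive by log2 -3.12 ± 0.39 (adjusted p = 0.00208), with 1 of 2 Treg arrays well above background.

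**Figure D4:**
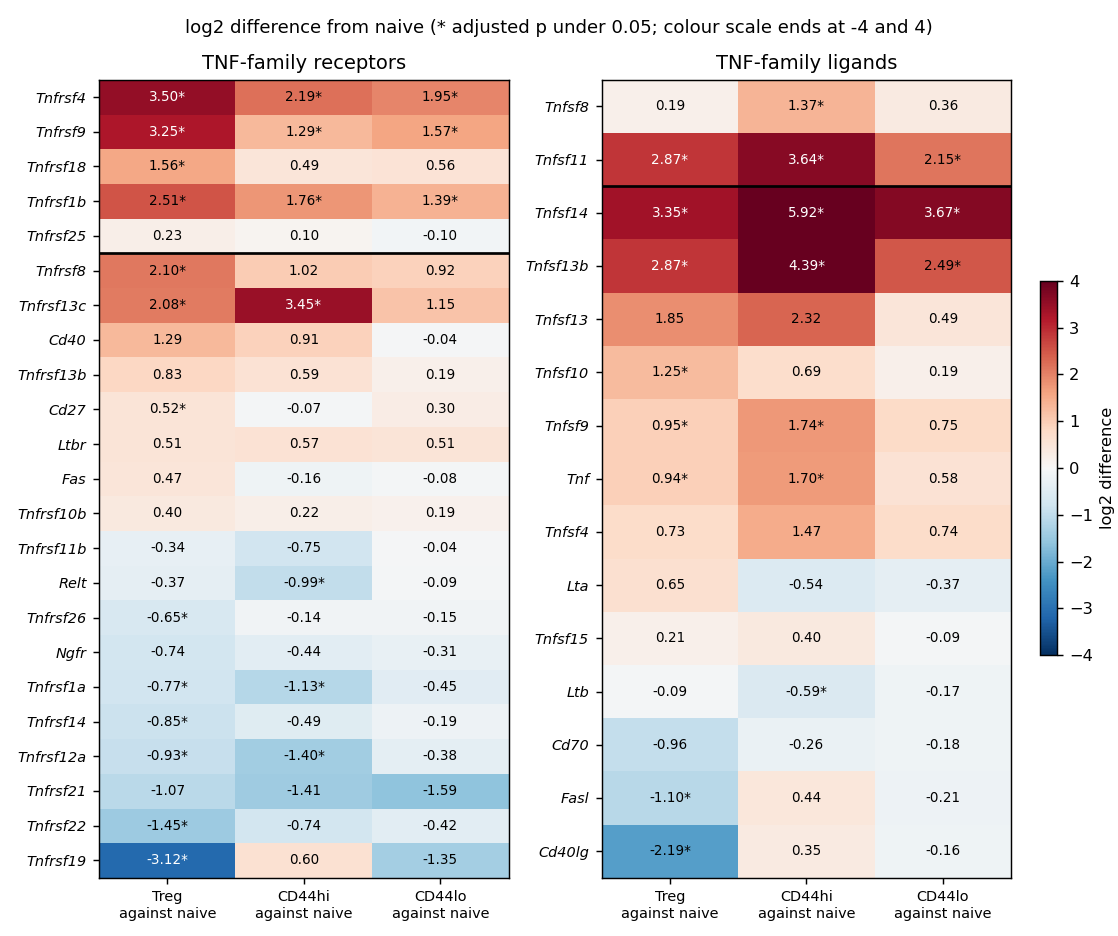
log2 difference from naive in Treg, CD44hi and CD44lo for the tested TNF-family receptors (left) and ligands (right), with the 5 and 2 members above the black line and the others sorted by Treg; an asterisk marks a limma adjusted p under 0.05. Among receptors the largest positive values in Treg are those of Tnfrsf4, Tnfrsf9 and Tnfrsf1b, and among ligands Tnfsf14 and Tnfsf13b have the largest values, in CD44hi.

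Downstream of the receptors, of 29 TRAF adaptors and NF-kappaB genes tested, 3 were called higher and 2 lower in Treg than in naive, 1 higher and 4 lower in CD44hi than in naive, and 0 in CD44lo against naive (3 at an unadjusted p under 0.05), where 21.9%, 27.8% and 5.29% of all genes were called in either direction. The list's median log2 difference from naive was 0.012 in Treg, -0.14 in CD44hi and -0.098 in CD44lo, against -0.20, -0.15 and -0.13 over all genes tested. In Treg the list's median was 0.11 against CD44lo and 0.083 against CD44hi, with 0 genes called in either comparison (4 and 6 at an unadjusted p under 0.05), while the medians over all genes were -0.072 and -0.036. Nfkb2, the precursor of the noncanonical NF-kappaB subunit p52, was higher in Treg (log2 0.96 ± 0.18, adjusted p = 0.0121) and in CD44hi (log2 0.63 ± 0.18, adjusted p = 0.0440). Map3k14 (NIK), the kinase that triggers its processing, was lower in Treg (log2 -0.94 ± 0.14, adjusted p = 0.00421) and CD44hi (log2 -0.97 ± 0.14, adjusted p = 0.00327). Nfkb1 and Tank were higher in Treg (log2 0.60, adjusted p = 0.0416, and log2 0.68, adjusted p = 0.0301), and Traf4 and Traf6 lower in CD44hi (log2 -1.85, adjusted p = 0.0123, and log2 -0.96, adjusted p = 0.0148).

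Among 11 tested genes of the survival list, which holds BCL2 family members and Birc5, 5 were called higher and 0 lower in Treg than in naive, 5 higher and 3 lower in CD44hi than in naive, and 3 higher and 0 lower in CD44lo than in naive. Of all genes tested, 11.6% were called higher and 10.3% lower in Treg, 13.2% and 14.5% in CD44hi, and 4.53% and 0.761% in CD44lo. Bcl2l1, which encodes the anti-apoptotic protein BCL-XL, was higher in Treg than in naive by log2 1.82 ± 0.15 (adjusted p = 3.6e-04) and than in CD44lo by log2 1.43 ± 0.15 (adjusted p = 0.00518), and higher in CD44hi than in naive by log2 1.28 (adjusted p = 0.00128). The anti-apoptotic Bcl2a1b was higher in Treg (log2 1.57), CD44hi (2.32) and CD44lo (1.29) than in naive, with adjusted p = 0.00312, 4.9e-04 and 0.0184; it has close paralogs that a probe may not tell apart. Pmaip1 (NOXA), which promotes death, differed from naive by log2 3.02 in Treg, 3.19 in CD44hi and 2.26 in CD44lo. Birc5 (survivin), which is made in dividing cells, differed by 4.17 in Treg and 5.16 in CD44hi. Bad, Bax and Bbc3, which also promote death, were called in 0 of the 6 comparisons by limma. At an unadjusted p under 0.05 they passed in 0, 1 and 1 of them. Bcl2 itself was lower in CD44hi than in naive (log2 -1.82 ± 0.24, adjusted p = 0.00218) and higher in Treg than in CD44hi (log2 1.38, adjusted p = 0.0176).

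The genes whose log2 signals ran closest to Tnfrsf4 over the 8 arrays were Ldlrad4 (Pearson r = 0.998), Cd79b (0.998), Msl3l2 (0.997), Plcl1 (0.996) and Tmem63c (0.995). Cd79b read 3.82 and 3.53 in Treg, 1.12 and 1.28 in CD44hi, 0.809 and 1.04 in CD44lo, and 0.122 and 0.249 in naive. Among the members, r with Tnfrsf4 was 0.988 for Tnfrsf1b, 0.966 for Tnfrsf9, 0.928 for Tnfrsf18, 0.837 for Tnfsf11, 0.605 for Tnfrsf25 and 0.264 for Tnfsf8. These are descriptions of 8 points in 4 pairs that share their arrays and scaling, with no test.

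On the genome, 6 of the 7 genes lie on chromosome 4, with Tnfsf11 on chromosome 14. Tnfrsf4 and Tnfrsf18 follow each other with 0 other protein-coding genes between them in RefSeq, and their probes lie 12.2 kb apart in the array annotation. Of the flanking genes, chosen after the values of the pair were known, Sdf4 was higher in Treg than in naive by log2 0.65 ± 0.16 (limma adjusted p = 0.0325), and B3galt6 (-0.27), Ttll10 (-0.32) and 9430015G10Rik (0.16) were not called. The pair itself differed by log2 3.50 and 1.56.

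Markers of the populations moved with these genes. Foxp3, the lineage factor of regulatory T cells, read 6.84 and 6.39 in Treg, 0.844 and 0.936 in CD44hi, 1.27 and 1.79 in CD44lo, and 0.0235 and 0.0389 in naive. The summed relative signal of the 4 regulatory T cell markers was 29.8 to 31.3 in Treg, 7.58 to 9.13 in CD44hi, 8.03 to 11.2 in CD44lo and 0.226 to 0.328 in naive. These markers were thus higher in CD44hi and CD44lo than in naive, with 4 of 4 called higher in each. Over all genes tested, 13.2% were called higher in CD44hi and 4.53% in CD44lo. The part of these markers in the levels of the member receptors in CD44hi and CD44lo was not tested. Cd44, the adhesion receptor after which the populations are named, read 11.5 and 10.4 in Treg, 22.6 and 21.0 in CD44hi, 7.08 and 8.32 in CD44lo, and 4.37 and 5.69 in naive.

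Markers of other cell types moved in both directions. The 10 B cell markers summed to 4.77 to 5.04 in Treg, 4.25 to 4.79 in CD44hi, 1.75 to 2.54 in CD44lo and 1.72 to 3.75 in naive. Against naive, 4 were called higher and 3 lower in Treg, 5 higher and 3 lower in CD44hi, and 2 higher and 3 lower in CD44lo. Over all genes tested, 11.6% were called higher and 10.3% lower in Treg, 13.2% and 14.5% in CD44hi, and 4.53% and 0.761% in CD44lo. Cd22, a B cell gene, was at least 28.8-fold higher in Treg, at least 153-fold higher in CD44hi and at least 56.0-fold higher in CD44lo than in naive, where it was not well above background. The 10 myeloid and dendritic markers summed to 0.668 to 0.992 in Treg, 1.15 to 1.39 in CD44hi, 0.523 to 0.570 in CD44lo and 0.776 to 1.29 in naive, with Lyz2 higher (log2 1.90 in Treg and 2.67 in CD44hi) and Itgax lower (log2 -3.03, -1.80 and -2.66 in Treg, CD44hi and CD44lo) than in naive; Itgax was well above background on 1 of 2 Treg arrays. The 6 CD8 T and NK cell markers summed to 5.66 to 6.05 in Treg, 5.45 to 5.84 in CD44hi, 7.29 to 8.37 in CD44lo and 14.8 to 21.1 in naive. On the naive arrays this sum came mostly from Cd8b1 (8.69 and 13.4) and Klrd1 (6.07 and 7.61). The list did not move as one. Klrd1 was lower in Treg than in naive by log2 -5.60, and Klrb1c was higher in CD44hi by log2 4.32. Klrb1c and Gzma were lowest in naive. Cd8a was called in 0 of the 6 comparisons and was not well above background on CD44hi array 1, either CD44lo array or naive array 1. The 4 erythroid and platelet markers divided by replicate number and not by population: they summed to 0.368, 0.372, 0.368 and 0.345 on the first arrays of Treg, CD44hi, CD44lo and naive, and to 0.111, 0.157, 0.133 and 0.202 on the second. Between populations 0 were called and 0 had an unadjusted p under 0.05. The part of such cells in the results above was not tested.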

How the data were processed

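Each of 8 RNA samples was hybridized in Cy3 to 1 array. Per the file headers, the authors read the images with Agilent Feature Extraction 9.5.1.1, and the deposited spot values are intensity readings, of which the processed signal is background-subtracted within its array; the flags beside them (unit other, per the file headers) mark outliers and spots well above background. The deposited value table is on a log2 scale, with shared quantiles over the arrays (medians 6.86 to 6.88). The submitters' processing notes name limma and no step.

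Controls (1639 of 45018 spots) and outlier spots were left out, spots of a probe averaged, and the processed signals divided by the 75th percentile of non-control probes on their array before taking log2. Probes were named by RefSeq accession (22951), symbol (6659) or older symbol (3109), and 8455 kept the file's name. The brightest probe stood for a gene, and a gene entered the test if 1 population or more had this probe well above background on both of its arrays. All 8 arrays entered 1 fit (limma 3.58.1 under R 4.3.3, functions lmFit, contrasts.fit and eBayes, 2-sided, without a block; degrees of freedom 4 from residuals and 2.62 from the prior), and called means a Benjamini-Hochberg adjusted p under 0.05 over all genes tested. The scripts were tested on simulated data. With 2 arrays against 2, an exact permutation test cannot go below p = 0.333. The number of arrays limits the precision. A value after ± is the SE from this fit, or an SD where so named.

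The members and gene lists were chosen with earlier results of these data known. Named genes were all members and their partners, from each pathway list up to 4 called genes of largest difference per comparison with naive and up to 2 in each other comparison, the 5 genes most correlated with Tnfrsf4, and population and other-cell markers. The replicate numbers were not treated as pairs, because the labels do not say what a number marks.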

Additional observations from a re-analysis of the deposited data

How the results depend on the processing

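The 5 calls of members in Treg against naive were kept under all 11 other settings and without each array in turn. Calls among Treg, CD44hi and CD44lo depended on the processing. Without a filter on dim probes, which raises the number of genes tested, 0 members were called in CD44hi against CD44lo, 0 in Treg against CD44lo and 2 in Treg against CD44hi. The mean of a gene's probes gave 2 in CD44lo against naive, 1 in Treg against CD44lo and 2 in Treg against CD44hi, and fits of only the 2 populations compared gave 2 in CD44lo against naive and 1 in CD44hi against CD44lo. Without 1 array, the members called ranged from 1 to 5 in CD44lo against naive, 4 to 6 in CD44hi against naive, 5 to 5 in Treg against naive, 0 to 2 in CD44hi against CD44lo, 0 to 4 in Treg against CD44lo and 0 to 4 in Treg against CD44hi, and all genes called ranged from 506 to 7191, 2593 to 9232, 1788 to 9200, 513 to 2765, 188 to 1641 and 535 to 2635 in the same comparisons, each time highest without naive array 1. The 952, 4998, 3941, 1686, 1001 and 1474 genes called there became 606, 3127, 2301, 842, 382 and 776 with no filter on dim probes; the filter on all 8 arrays gave 621 in CD44lo against naive, and fits of only 2 populations gave 2610 in CD44hi and 2517 in Treg against naive. The split of calls, higher and lower, moved with the scaling: 815 and 137 in CD44lo against naive became 486 and 175 with normexp and 724 and 307 in the authors' value table, and with normexp the 2384 and 2614 of CD44hi and the 2081 and 1860 of Treg against naive became 1814 and 3499, and 1561 and 3250. With the replicate number as a block, 4 members were called in CD44lo against naive, 5 in CD44hi against naive, 5 in Treg against naive, 2 in CD44hi against CD44lo, 4 in Treg against CD44lo (Tnfrsf18 gained) and 5 in Treg against CD44hi (Tnfrsf1b gained). The pairing check gave correlations of 0.056 to 0.33 between the deviations of same-numbered arrays, 5 of 6 over 0.1, and the haemoglobin gene Hba-a1 read 0.318 to 0.339 on all number 1 arrays and 0.0534 to 0.123 on all number 2 arrays; that is a hint in the data of a shared source, which the labels do not give. Tnfrsf25 in CD44lo against naive turned to 0.26 in the authors' value table, 0.22 after quantile normalization and 0.16 with the mean of both probes, and ranged from -0.24 to 0.043 without 1 array; in Treg against CD44hi it turned to -0.12 with the mean of both probes, and in CD44hi against naive it ranged from -0.039 to 0.24 without 1 array. Other differences, none of them called, that changed sign without 1 array were those of Tnfsf8 in Treg against naive (-0.037 to 0.42) and Treg against CD44lo (-0.40 to 0.059), and of Tnfrsf4 (-0.045 to 0.54) and Tnfrsf18 (-0.16 to 0.027) in CD44hi against CD44lo. The cause of these changes was not tested. The median over all genes in Treg against naive was -0.20, and -0.10 in the authors' value table. Nearness to background limits what the second Tnfrsf9 probe, and the probes of partners such as Tnfsf18 and Tnfrsf11a, can show.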
